A study of Mus musculus with 12 samples.

Results

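The guanylate-binding proteins (Gbps) of the mouse were followed across 4 groups of BMDMs, the macrophages that grow from cultured mouse bone marrow. The members were taken by gene symbol and comprised Gbp2, Gbp2b, Gbp3, Gbp4, Gbp5, Gbp6, Gbp7, Gbp8, Gbp9 and Gbp10, that is 10 of the 48526 genes in the count table. Of these, 9 passed the filter on low counts and were among the 15523 genes tested, and Gbp10 did not pass it. BMDMs came from mice homozygous for deletion of HSS9 (KO), an enhancer upstream of the Tnf gene that is also called TNF-9, and from control mice without the deletion (WT). Cells of each genotype were treated with phosphate-buffered saline (UT) or stimulated with lipopolysaccharide (LPS), a component of the bacterial outer membrane, for 6 hr, with 3 total RNA libraries in each combination of genotype and treatment. All mice were male and 7 to 10 weeks old. In the labels the WT mice are littermates, but the methods speak of a KO colony kept by homozygous breeding and of purchased C57BL/6 mice, so genotype and origin of the mice cannot be told apart here. The LPS concentration used for these libraries and the number of mice behind them were not given in the sources used here, so p-values measure the spread between these libraries.

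Gbps are large interferon-inducible GTPases that bind to the membranes of vacuoles holding pathogens and to the surface of cytosolic bacteria. In macrophages, LPS acts through its receptor to induce interferon beta, which is released and signals back through Jak kinases to transcription factors that switch on Gbp genes. Gbp2, Gbp2b and Gbp5 end in a motif for attachment of a lipid group (prenylation) that anchors them to membranes, and the Gbps of chromosome 3 as a group promote inflammasome activation by bacterial LPS in the cytosol. The mouse genes lie in 2 clusters. In GRCm38, Gbp5 (142493978 to 142522344), Gbp7 (142530342 to 142550149), Gbp3 (142560026 to 142573209), Gbp2b (142594847 to 142619179) and Gbp2 (142620602 to 142638008) lie on the plus strand of chromosome 3. Gbp8 (105014150 to 105139540), Gbp9 (105077630 to 105139539), Gbp4 (105115767 to 105139586), Gbp10 (105215699 to 105239533) and Gbp6 (105270702 to 105293698) lie on the minus strand of chromosome 5. All 10 are annotated as protein coding. Their Ensembl identifiers are ENSMUSG00000028270 (Gbp2), ENSMUSG00000040264 (Gbp2b), ENSMUSG00000028268 (Gbp3), ENSMUSG00000079363 (Gbp4), ENSMUSG00000105504 (Gbp5), ENSMUSG00000104713 (Gbp6), ENSMUSG00000040253 (Gbp7), ENSMUSG00000034438 (Gbp8), ENSMUSG00000029298 (Gbp9) and ENSMUSG00000105096 (Gbp10).

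Sequences before the gene starts are shown first, so that the letters recognised by interferon-responsive factors can be seen in them. They come from RefSeq (GRCm38.p6), cover up to 250 bases before each RefSeq start on the plus strand, and were found for 5 of the 10 members. These are the members on chromosome 3, and none was found for those on chromosome 5, so the clusters cannot be compared. Capitals mark matches on either strand to the core of the interferon-stimulated response element (ISRE, GAAANNGAA), the gamma-activated site (GAS, TTCNNNGAA) and a kappaB-type motif (GGGANTTTC). The windows of Gbp5 (chr3:142496684-142496929), Gbp7 (chr3:142530086-142530335), Gbp3 (chr3:142559794-142560043), Gbp2b (chr3:142594597-142594846) and Gbp2 (chr3:142620413-142620631) read as follows, those of Gbp5 and Gbp2 cut short at their ends inside an annotated exon.
Gbp5: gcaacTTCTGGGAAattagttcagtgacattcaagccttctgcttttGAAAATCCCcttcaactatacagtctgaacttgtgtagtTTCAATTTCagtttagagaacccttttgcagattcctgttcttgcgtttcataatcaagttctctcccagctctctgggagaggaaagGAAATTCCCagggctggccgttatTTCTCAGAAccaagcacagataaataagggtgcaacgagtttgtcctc
Gbp7: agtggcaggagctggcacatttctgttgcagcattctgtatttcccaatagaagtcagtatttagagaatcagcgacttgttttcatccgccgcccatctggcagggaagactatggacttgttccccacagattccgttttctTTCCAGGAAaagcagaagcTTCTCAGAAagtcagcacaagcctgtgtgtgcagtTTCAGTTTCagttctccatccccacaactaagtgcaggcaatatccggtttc
Gbp3: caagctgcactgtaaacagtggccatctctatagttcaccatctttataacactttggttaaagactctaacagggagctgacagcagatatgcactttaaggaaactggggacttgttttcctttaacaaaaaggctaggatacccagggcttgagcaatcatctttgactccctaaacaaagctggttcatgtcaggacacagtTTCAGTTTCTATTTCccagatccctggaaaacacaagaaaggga
Gbp2b: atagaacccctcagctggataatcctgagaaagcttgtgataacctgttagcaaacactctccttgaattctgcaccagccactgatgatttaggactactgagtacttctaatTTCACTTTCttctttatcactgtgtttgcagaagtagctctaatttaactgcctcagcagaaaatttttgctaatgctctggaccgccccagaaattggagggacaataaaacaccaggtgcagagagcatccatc
Gbp2: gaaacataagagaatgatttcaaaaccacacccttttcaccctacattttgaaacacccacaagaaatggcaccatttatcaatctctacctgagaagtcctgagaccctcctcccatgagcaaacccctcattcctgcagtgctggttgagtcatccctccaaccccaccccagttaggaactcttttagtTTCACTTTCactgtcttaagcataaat

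Each of these 5 members held at least 1 ISRE core match, against 7.13% of the 32851 promoter windows of 250 bases in the same collection. The match lay 58 bases upstream of the RefSeq start in Gbp2, 136 in Gbp2b, 52 in Gbp7 and 164 in Gbp5, and Gbp3 held 2 overlapping matches at 44 and 38 bases. Gbp5 and Gbp7 held 2 GAS matches each, and the other 3 held none, against 7.02% of all windows. Gbp5 also held 2 kappaB-type matches, at 203 and 76 bases upstream, against 0.941% of all windows. A second window listed for Gbp3, from a RefSeq start further downstream, held 0 matches to the 3 motifs. The window of Gbp5 lies within the gene span of the annotation used for the counts, and 61 of the 250 bases before the Gbp2 start are exonic there, including its ISRE match. A match describes letters and not a bound site.

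Library totals ranged from 26154533 to 36423921 counts. The deleted enhancer lies outside the counted exons, so its effect was checked on Tnf, the gene for tumor necrosis factor alpha, which was at 826, 905 and 938 CPM (counts scaled to library size by TMM) in WT LPS against 422, 449.5 and 425 CPM in KO LPS (log2 fold change -1.04, SE 0.0604, adjusted p 2.76e-10 by edgeR). Without LPS it was at 14.8, 14.98 and 16.2 CPM in WT and at 9.51, 10.5 and 9.10 CPM in KO. The 6 macrophage markers summed to 22858 to 33405 CPM, most of it from Lyz2 (18070 to 27976 CPM). Adgre1 was at 1987 to 3227 CPM, Csf1r at 1828 to 2470, Cd68 at 355 to 744 and Itgam at 45.2 to 142. Mertk was at 67.0 to 85.8 CPM in UT and only 13.6 to 15.7 CPM in LPS libraries. The 8 T cell and NK cell markers summed to at most 0.665 CPM, 4 B cell markers to at most 1.79 CPM and 4 dendritic cell markers to at most 2.102 CPM. The 6 neutrophil markers summed to 18.0 to 19.3 CPM in WT UT, 40.1 to 45.2 in KO UT, 50.3 to 79.0 in WT LPS and 67.0 to 76.2 in KO LPS, with Ly6g at 0 throughout. The 5 stromal markers summed to 3.53 to 4.32 CPM in WT UT, 3.64 to 5.44 in KO UT, 1.93 to 4.06 in WT LPS and 6.76 to 8.12 in KO LPS. Small structured RNAs took 3.00 to 3.25% of counts in WT UT, 6.64 to 7.98% in KO UT, 4.04 to 6.89% in WT LPS and 3.23 to 3.43% in KO LPS. In bulk RNA, fewer cells that express a gene and less RNA per cell cannot be told apart.

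The first question was how LPS changed the family in WT cells. Of the 9 members tested, 8 rose past both thresholds (edgeR adjusted p below 0.05 and absolute log2 fold change above 1, together named a call), against 19.1% of all genes tested that were called higher. Gbp8 was the exception. The summed level of the 10 members went from 156 ± 3.49 CPM (SD, n = 3) in WT UT to 6227 ± 542 CPM in WT LPS, or from 0.0202% to 0.507% of all counts. The median log2 fold change was 5.47 over the 9 members tested and 0.05 over all genes tested.

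Among the prenylated members, Gbp5, which promotes inflammasome assembly, showed the largest fold change. It was at 4.51, 5.45 and 5.02 CPM in WT UT and at 1673, 1464 and 1377 CPM in WT LPS. The groups were far apart, at a ratio of 300.8 (log2 fold change 8.23, SE 0.0952, adjusted p 1.03e-24 by edgeR). Gbp2, which is recruited to pathogen vacuoles and to bacteria, was at 36.7, 34.7 and 35.8 CPM in WT UT and at 2669, 2532 and 2274 CPM in WT LPS. Every WT LPS library lay above every WT UT library, at a ratio of 69.7 (log2 fold change 6.12, SE 0.0725, adjusted p 1.38e-24 by edgeR). Gbp2b, the closest neighbour of Gbp2 in the cluster, had 1, 2 and 2 counts in WT UT and 8 in each WT LPS library. It was called (log2 fold change 3.09, SE 0.673, adjusted p 3.25e-04 by edgeR), and the pooled counts gave a ratio of 9.22 with an exact 95% interval of 3.45 to 30.9 that covers counting error only. Gbp2b stood near the detection limit in these macrophages while the genes on both sides of it were among the most abundant members.

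The remaining members of the chromosome 3 cluster rose as well. Gbp3 was at 21.5, 21.3 and 20.2 CPM in WT UT and at 1184, 1133 and 990.0 CPM in WT LPS, a log2 fold change of 5.71 (SE 0.0736, adjusted p 5.12e-24 by edgeR). Gbp7, which has been linked to assembly of the phagocyte oxidase, was at 17.3, 20.1 and 19.3 CPM in WT UT and at 510.3, 457 and 405 CPM in WT LPS, a log2 fold change of 4.60 (SE 0.106, adjusted p 7.05e-20 by edgeR). Groups did not overlap for either gene.

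Responses in the chromosome 5 cluster ranged from the strongest but 1 of the family to none that could be detected. Gbp6 was at 0.842, 0.596 and 0.723 CPM in WT UT and at 66.3, 61.6 and 55.3 CPM in WT LPS, a log2 fold change of 6.40 (SE 0.110, adjusted p 4.53e-22 by edgeR). Gbp4 was at 3.25, 3.40 and 3.00 CPM in WT UT and at 159, 136 and 131 CPM in WT LPS, a log2 fold change of 5.47 (SE 0.101, adjusted p 1.53e-21 by edgeR). Gbp9 was at 63.7, 67.3 and 70.6 CPM in WT UT and at 492, 459 and 438 CPM in WT LPS. The groups were apart, and its log2 fold change of 2.78 (SE 0.0681, adjusted p 1.83e-19 by edgeR) was the smallest of the 8 called. Gbp8 was at 4.82, 3.91 and 4.74 CPM in WT UT and at 4.10, 3.68 and 3.02 CPM in WT LPS. These groups overlapped, and the log2 fold change was -0.31 (95% interval -0.70 to 0.08, adjusted p 0.144 by edgeR). Gbp10 had 0, 0 and 6 counts in WT UT and 13, 6 and 11 in WT LPS, a ratio of the pooled counts of 9.61 (exact 95% interval 3.93 to 28.2, counting error only).

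**Figure D1:**
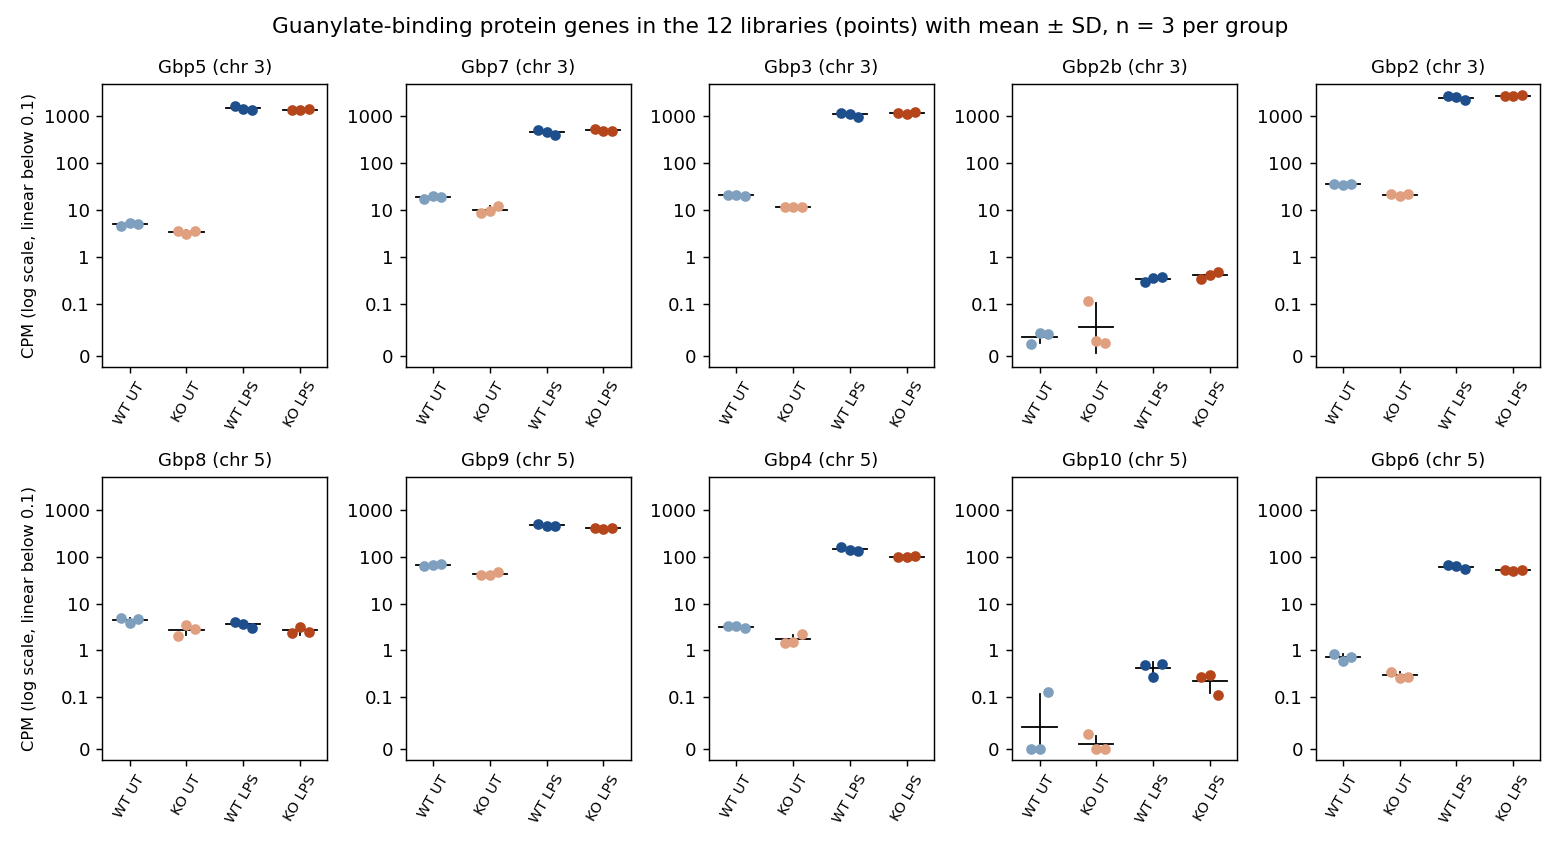
Level of each guanylate-binding protein gene in CPM (log scale, linear below 0.1) in the 12 libraries, grouped by genotype and treatment. Points are libraries, and bars show mean ± SD with n = 3. Gbp5 spans 3.11 to 1673 CPM, Gbp8 stays between 2.05 and 4.82 CPM, and Gbp2b and Gbp10 stay below 1 CPM in every library.

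In KO cells 8 of the 9 members were called higher with LPS, again all but Gbp8, against 17.7% of all genes tested. Gbp5 was again the gene with the largest change, from 3.61, 3.11 and 3.59 CPM in KO UT to 1375, 1363 and 1469 CPM in KO LPS (log2 fold change 8.67, SE 0.0993, adjusted p 8.63e-25 by edgeR). The log2 fold changes in KO were 7.41 for Gbp6, 6.66 for Gbp3, 5.82 for Gbp4, 5.59 for Gbp7, 3.24 for Gbp9 and 2.80 for Gbp2b. For Gbp8 it was -0.06 (95% interval -0.49 to 0.36, adjusted p 0.788 by edgeR). Gbp2, which was at 2733, 2692 and 2899 CPM in KO LPS, rose at a ratio of 128. Gbp10 had 1, 0 and 0 counts in KO UT and 7, 8 and 3 in KO LPS. Beside these changes in single genes, the summed level of the family went from 94.5 ± 7.09 CPM (SD, n = 3) to 6417 ± 213 CPM, or from 0.0110% to 0.524% of all counts. When the small RNA share entered as a covariate, the adjusted p of Gbp2b in KO was 0.0593, and the other 7 members were called with it in both genotypes.

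To compare members with each other, levels were divided by exon length (CPM per kb), and each member was expressed as a share of the summed CPM per kb of the family. The make-up of this pool differed between UT and LPS as well as its size. In WT UT, Gbp2 (35.8 ± 1.17%, SD, n = 3) and Gbp9 (32.8 ± 1.29%) took most of the pool, followed by Gbp3 (16.3 ± 0.746%), Gbp7 (8.49 ± 0.618%), Gbp8 (3.29 ± 0.364%) and Gbp5 (1.90 ± 0.175%). In WT LPS the share of Gbp2 was 56.4 ± 0.392%, that of Gbp3 19.2 ± 0.310% and that of Gbp5 12.9 ± 0.438%. Gbp9 was down to 5.11 ± 0.166% of the pool although its own level had risen, and Gbp8 to 0.0593 ± 0.00411%.

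In order of CPM per kb, WT UT libraries ran Gbp2, Gbp9, Gbp3, Gbp7, Gbp8, Gbp5, Gbp4, Gbp6, Gbp2b and Gbp10, and only the last 2 overlapped. The order in KO UT was the same, with overlap between Gbp2 (8.60 ± 0.500 CPM per kb) and Gbp9 (8.20 ± 0.752 CPM per kb). WT LPS libraries ran Gbp2, Gbp3, Gbp5, Gbp9, Gbp7, Gbp4, Gbp6, Gbp8, Gbp2b and Gbp10, with overlap between Gbp9 (89.5 ± 5.25 CPM per kb) and Gbp7 (81.5 ± 9.40 CPM per kb) and between the last 2. In KO LPS the places of Gbp7 (89.46 ± 4.003 CPM per kb) and Gbp9 (77.3 ± 0.791 CPM per kb) were exchanged without overlap, and Gbp2 took 59.1 ± 0.262% of the pool. Per length of the longest transcript in place of all exons, Gbp5 took 19.8% of the pool in WT LPS, close to the 20.3% of Gbp3. In UT, the share of Gbp5 was then 3.14% in WT and 3.60% in KO, and Gbp5 no longer stood below Gbp8 (1.330 against 1.327 CPM per kb in WT UT, 0.916 against 0.822 in KO UT).

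**Figure D2:**
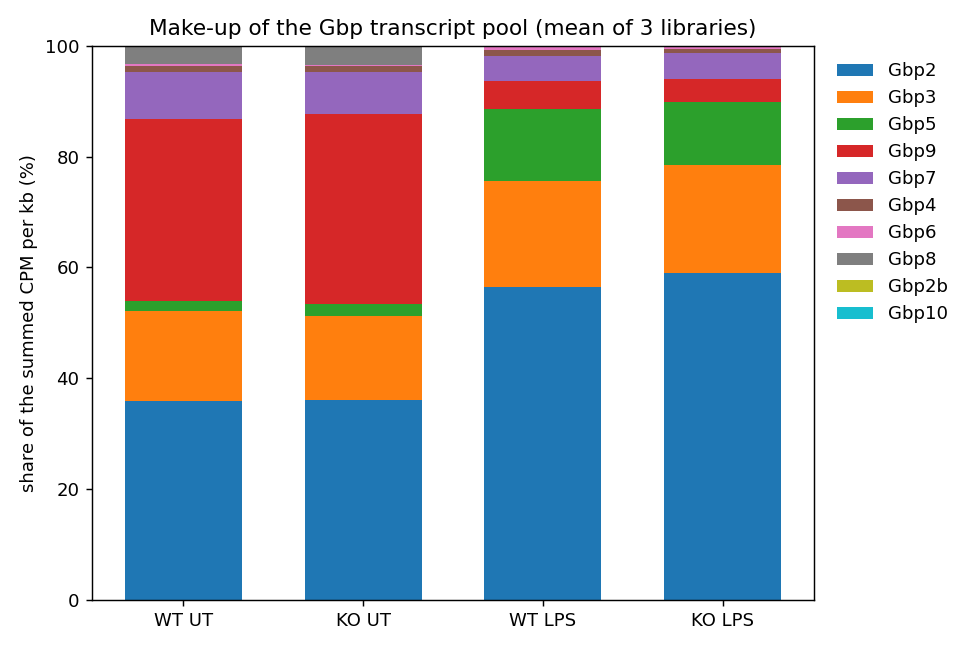
Share of each member in the summed CPM per kb of the 10 genes, as the mean of 3 libraries in each group, stacked to 100%. Gbp9 takes 32.8% in WT UT and 5.11% in WT LPS, whereas Gbp2 goes from 35.8% to 56.4% and Gbp5 from 1.90% to 12.9%.

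Levels of Gbp6 and Gbp10 carry a further limit. Of the exon bases of Gbp6 and Gbp10, 29.0% and 46.3% are shared with the overlapping gene model Gm43302, and 35.5% and 26.5% of the 100-base words in their transcripts are found in no other annotated transcript. How the counting treated such reads is not stated. Each of the other 8 members had at least 89.99% unique words. Gm43302 itself had 0 counts in every library.

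The next question was whether KO and WT cells differed before stimulation. Without LPS, 8 of the 9 members tested were lower in KO at an edgeR adjusted p below 0.05, against 9.69% of all genes tested that were lower by this measure. Only Gbp6 also passed the fold threshold and was called, against 0.799% of all genes tested that were called lower. The median log2 fold change of the 9 members was -0.72, beside 0.00 over all genes tested. For each of the 8 genes the 3 KO UT libraries lay below the 3 WT UT libraries. The share of all genes tested without such overlap was not computed. The summed level of the family was 152.7, 156.8 and 159.7 CPM in WT UT and 89.95, 90.8 and 102.6 CPM in KO UT.

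Gbp6 had 36, 27 and 34 counts in WT UT and 12, 9 and 11 in KO UT, and its log2 fold change was -1.27 (SE 0.251, adjusted p 6.79e-04 by edgeR). Gbp4 was at 1.42, 1.498 and 2.25 CPM in KO UT, below its 3 WT UT values (log2 fold change -0.88, SE 0.150, adjusted p 1.43e-04 by edgeR). Gbp9 was at 39.6, 40.9 and 46.9 CPM in KO UT (log2 fold change -0.66, SE 0.0665, adjusted p 3.73e-07 by edgeR). Gbp8, which did not respond detectably to LPS, was nevertheless lower in KO UT, at 2.05, 3.41 and 2.88 CPM (log2 fold change -0.69, SE 0.185, adjusted p 0.00876 by edgeR).

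Members on chromosome 3 were lower as well, except Gbp2b. Gbp2 was at 22.1, 20.2 and 22.6 CPM in KO UT (log2 fold change -0.72, SE 0.0636, adjusted p 6.03e-08 by edgeR). Gbp3 was at 11.7 ± 0.243 CPM (SD, n = 3) in KO UT (log2 fold change -0.84, SE 0.0698, adjusted p 2.37e-08 by edgeR). Gbp7 was at 8.70, 9.81 and 12.6 CPM in KO UT (log2 fold change -0.86, SE 0.108, adjusted p 5.33e-06 by edgeR). Of the members lower in KO, Gbp5 had the smallest difference (log2 fold change -0.54, SE 0.104, adjusted p 5.44e-04 by edgeR). Gbp2b had 4, 1 and 1 counts in KO UT and showed no detectable difference at this depth (95% interval of the log2 fold change -1.23 to 2.32, adjusted p 0.703 by edgeR).

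The small structured RNAs (6.64 to 7.98% of counts in KO UT, 3.00 to 3.25% in WT UT) and the summed neutrophil markers (40.1 to 45.2 and 18.0 to 19.3 CPM) were both higher in the KO UT libraries, and the part of the neutrophil markers in these differences was not tested. With the small RNA share in the model, 2 of the 9 members kept an adjusted p below 0.05, namely Gbp3 (log2 fold change -0.51, adjusted p 0.00562) and Gbp2 (log2 fold change -0.38, adjusted p 0.0164), and Gbp6 was no longer called (-0.89, adjusted p 0.0781). The small RNA shares of the genotypes did not overlap in UT, so this fit cannot tell genotype and small RNA share apart. Without KO UT replicate 3, which had the highest Gbp4 and Gbp7 levels of its group, Gbp4 (-1.14) and Gbp7 (-1.03) were called as well, and without KO UT replicate 1 the adjusted p of Gbp8 was 0.0670.

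**Figure D3:**
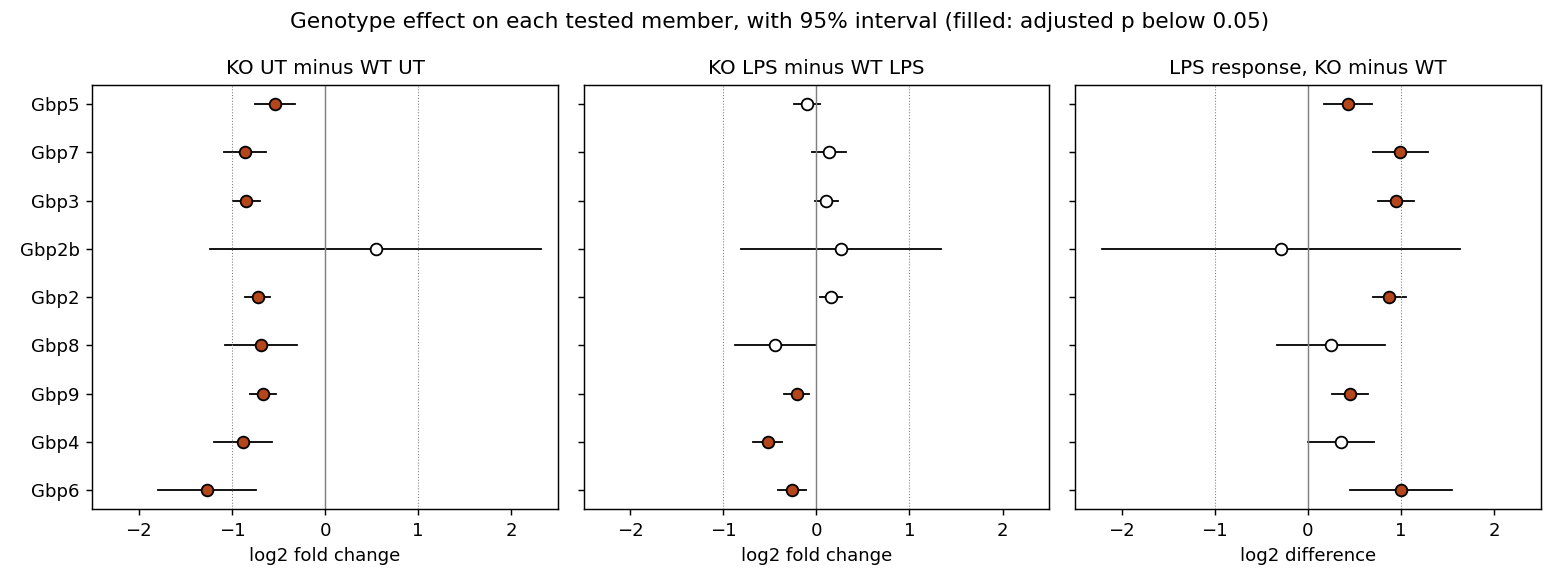
Log2 fold change of KO against WT for the 9 tested members without LPS and after LPS, and the log2 difference of the LPS response (KO minus WT), with 95% intervals. Filled points have an edgeR adjusted p below 0.05, which holds for 8 members without LPS, 3 after LPS and 6 for the response.

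After LPS, of the 9 members, 3 were lower in KO at an edgeR adjusted p below 0.05, against 6.54% of all genes tested. By edgeR and by DESeq2, 0 were called, against 0.664% of all genes tested that were called lower by edgeR, and 5 had an unadjusted p below 0.05 by edgeR. These 3, Gbp4, Gbp6 and Gbp9, lie on chromosome 5, and whether the clusters differed was not tested. Gbp4 was at 159, 136 and 131 CPM in WT LPS and 97.5, 97.7 and 101.4 CPM in KO LPS (log2 fold change -0.52, SE 0.0762, adjusted p 9.11e-05 by edgeR). Gbp6 was at 50.9, 50.4 and 51.5 CPM in KO LPS, below its WT LPS values (log2 fold change -0.26, SE 0.0709, adjusted p 0.0163 by edgeR). Gbp9 was at 403, 396 and 401 CPM in KO LPS (log2 fold change -0.21, SE 0.0634, adjusted p 0.0304 by edgeR), and with the replicate number as a block its adjusted p was 0.0542. Groups did not overlap for these 3 genes. Gbp8 was also lower on average, at 2.34, 3.23 and 2.42 CPM in KO LPS, but the groups overlapped (adjusted p 0.163 by edgeR). Within each of the 3 batches Gbp4, Gbp6, Gbp8 and Gbp9 were lower in KO, and Gbp2, Gbp2b and Gbp7 were higher. The share of all genes tested that did so was not computed.

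On chromosome 3, no member passed the adjusted p threshold by edgeR. Gbp2 was at 2733, 2692 and 2899 CPM in KO LPS, above all WT LPS libraries but by a small amount (log2 fold change 0.15, 95% interval 0.04 to 0.27, adjusted p 0.0764 by edgeR), and its adjusted p was 0.0495 by DESeq2 and 0.0151 by edgeR without a filter on low counts. The 95% intervals of the log2 fold change were -0.02 to 0.23 for Gbp3, -0.24 to 0.04 for Gbp5 and -0.05 to 0.32 for Gbp7, and that of Gbp2b was wide, from -0.81 to 1.34. The summed level of the family was 6758, 6247 and 5675 CPM in WT LPS and 6356, 6241 and 6654 CPM in KO LPS, so these groups overlapped. Gbp10 had 18 counts in all in KO LPS and 30 in WT LPS, a ratio of 0.527 (exact 95% interval 0.277 to 0.977, counting error only), with libraries that overlapped.

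Of the members lower in KO after LPS, Gbp4 alone kept an adjusted p below 0.05 whichever library was left out (at most 0.00134). Gbp6 lost it without WT LPS replicate 1 or 2 or KO LPS replicate 1 or 2 (0.0563 to 0.0602), and Gbp9 without each of these or KO LPS replicate 3 (0.0545 to 0.0922). Without WT LPS replicate 1, Gbp2 (log2 fold change 0.21), Gbp3 (0.16) and Gbp7 (0.22) were instead higher in KO at an adjusted p below 0.05. The summed stromal markers were at 1.93 to 4.06 CPM in WT LPS and 6.76 to 8.12 CPM in KO LPS, and their part in these differences was not tested. The small RNA share was 4.04 to 6.89% in WT LPS and 3.23 to 3.43% in KO LPS, and with it as a covariate the values of Gbp2 (-0.0059), Gbp3 (-0.055) and Gbp7 (-0.16) changed sign, whereas Gbp5 was lower in KO (-0.30, adjusted p 0.00167). These shares did not overlap between genotypes either, so the same limit holds for this fit after LPS.

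Whether the response to LPS itself differed between genotypes was tested with the interaction term, in which a positive value means a larger rise in KO. For 6 of the 9 members it was positive at an edgeR adjusted p below 0.05, against 7.32% of all genes tested, and Gbp6 was called, against 0.522% of all genes tested that were called higher. The values were 1.00 for Gbp6 (SE 0.263, adjusted p 0.0112), 0.99 for Gbp7 (SE 0.140, adjusted p 7.29e-05), 0.95 for Gbp3 (SE 0.0914, adjusted p 8.29e-07) and 0.88 for Gbp2 (SE 0.0857, adjusted p 9.22e-07). Those of Gbp9 (0.45, SE 0.0918, adjusted p 0.00160) and Gbp5 (0.43, SE 0.123, adjusted p 0.0185) were smaller. Gbp4 (0.36, adjusted p 0.165), Gbp8 (0.25, adjusted p 0.608) and Gbp2b (-0.28, adjusted p 0.880) did not pass. Gbp4 did pass by DESeq2 (adjusted p 0.0420), without KO UT replicate 3 (0.62, adjusted p 0.0168) and without WT LPS replicate 1 (0.44, adjusted p 0.0301). The interaction shares its UT and LPS libraries with the comparisons above: Gbp2, Gbp3 and Gbp7 were lower in KO UT and had small positive values after LPS, whereas Gbp4 was lower in KO in both treatments. Gbp6 was just over the fold threshold, and without WT UT replicate 1, KO UT replicate 2, KO UT replicate 3, WT LPS replicate 3 or KO LPS replicate 3 its value lay between 0.89 and 1.00 and it was not called. Without WT LPS replicate 1, Gbp3 (1.00) and Gbp7 (1.08) were called with it, and Gbp7 was called without WT UT replicate 1 (1.06), KO UT replicate 3 (1.17), KO LPS replicate 2 (1.02) or KO LPS replicate 3 (1.009). The adjusted p of Gbp5 was 0.0707 without WT UT replicate 2 and 0.0724 without KO UT replicate 2. Once the small RNA share was a covariate, 0 members passed by edgeR, and the values of Gbp5, Gbp9, Gbp4 and Gbp8 turned negative. Here too, genotype and small RNA share cannot be told apart by that fit.

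The genes that induce, act with or are induced beside the Gbps were described from lists of 60 genes, of which 58 were tested. With LPS, 38 of the 58 were called higher and 2 lower in WT, and 39 higher and 2 lower in KO, with medians of 2.30 and 2.94 on the log2 scale. The shares of all genes tested that were called lower were 18.7% and 19.3%. The interferon beta gene Ifnb1, the ligand made by the macrophages, was called higher with LPS in both genotypes, from 2, 0 and 3 counts in WT UT and 0 in each KO UT library. It had 44, 40 and 46 counts in WT LPS and 26, 23 and 24 in KO LPS. These groups did not overlap, but the difference did not pass the threshold (log2 fold change -1.03, SE 0.381, adjusted p 0.0797 by edgeR). Ifng, the gene for interferon gamma, had 0 counts in every library. The receptor chain genes Ifnar1 (1.88), Ifnar2 (1.88) and Ifngr1 (-1.13) were called in WT.

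Signalling genes and inhibitors were among those that rose, beside 19.1% of all genes tested that were called higher in WT and 17.7% in KO. In WT, Jak2, one of the Jak kinases, rose by 4.55 on the log2 scale. The transcription factor genes Batf2 and Irf7 rose there by 4.40 and 2.49, and the feedback inhibitors Socs3, Socs1 and Usp18 by 7.24, 6.37 and 4.35. All 6 tested immunity-related GTPases, which act on the same vacuoles as the Gbps, were called higher in both genotypes, with Tgtp1 (6.17), Iigp1 (5.66) and Tgtp2 (5.04) in the lead in WT. Tgtp1 and Tgtp2 are near copies, and reads could be split between them. Of 13 other interferon-stimulated genes all were called higher in both genotypes, led in WT by the chemokine gene Cxcl10 (8.22), Rsad2 (6.01) and Mx1 (5.52). Inflammasome genes rose too, 5 of 6 past both thresholds, led by Casp4 (3.75), Nlrp3 (3.10) and Casp1 (2.79). Among the autophagy conjugation genes, which help to place Gbps on vacuoles, Atg16l1 rose (1.28) and Atg7 fell (-1.62) in WT, and 0 of 5 prenylation enzyme genes were called by edgeR, although 4 had an adjusted p below 0.05, 2 higher and 2 lower, against 38% higher and 35.3% lower of all genes tested.

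Without LPS, 4 of the 58 pathway genes were called lower in KO and 0 higher, against 0.799% and 1.02% of all genes tested. At an edgeR adjusted p below 0.05 alone 30 were lower and 7 higher, against 9.69% and 14.1% of all genes tested. The 4 called lower were Ifi44 (log2 fold change -1.61), Irf7 (-1.21), Oasl1 (-1.15) and Tgtp2 (-1.03). Tgtp2 was not called without WT UT replicate 1, WT UT replicate 2 or KO UT replicate 1, nor with the small RNA share as a covariate, where Isg15 was (-1.11). By DESeq2, Ifit2 (-1.06) and Iigp1 (-1.02) were called in addition. Irf7, a factor that amplifies interferon production, was at 163, 159 and 163 CPM in WT UT and at 70.6, 70.1 and 69.3 CPM in KO UT (SE 0.0564, adjusted p 3.31e-12 by edgeR). All 13 other interferon-stimulated genes were lower at this threshold, with a median of -0.81, as were 5 of 6 immunity-related GTPases (median -0.70) and 8 of 12 kinases and transcription factors (median -0.23). Those of the ligand and receptor genes (3 of 5) and of the prenylation enzymes (2 of 5) that passed were higher in KO.

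After LPS, 0 of the 58 genes were called by edgeR, although 25 had an unadjusted p below 0.05, and 7 were higher and 9 lower in KO at an adjusted p below 0.05, against 7.78% and 6.54% of all genes tested. By DESeq2, Ifnb1 was called (-1.02, adjusted p 0.0335). The immunity-related GTPases, as 6 tested genes, had a median of -0.01 with 0 past the adjusted p threshold and 0 at an unadjusted p below 0.05 by edgeR. For the interaction, 5 genes were called higher in KO and 0 lower, against 0.522% and 1.64% of all genes tested. The 5 were Ifi44 (1.34), Irf7 (1.15), Ifit2 (1.05), Oasl1 (1.00) and Tgtp2 (1.00). At an adjusted p below 0.05 alone 25 were higher and 3 lower, against 7.32% and 9.5% of all genes tested. All 13 other interferon-stimulated genes were among the 25, with a median of 0.71. The 9 tested members had a median interaction of 0.45 and all genes tested -0.01. With the small RNA share as a covariate 0 of the 58 were called for the interaction by edgeR, and Oasl1 and Tgtp2 were not called when a mean CPM of 1 was required or among protein-coding genes only. Without WT LPS replicate 3, Irf7 and Ifi44 alone were called for the interaction, and without KO LPS replicate 3, Irf7, Ifi44 and Ifit2.

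**Figure D4:**
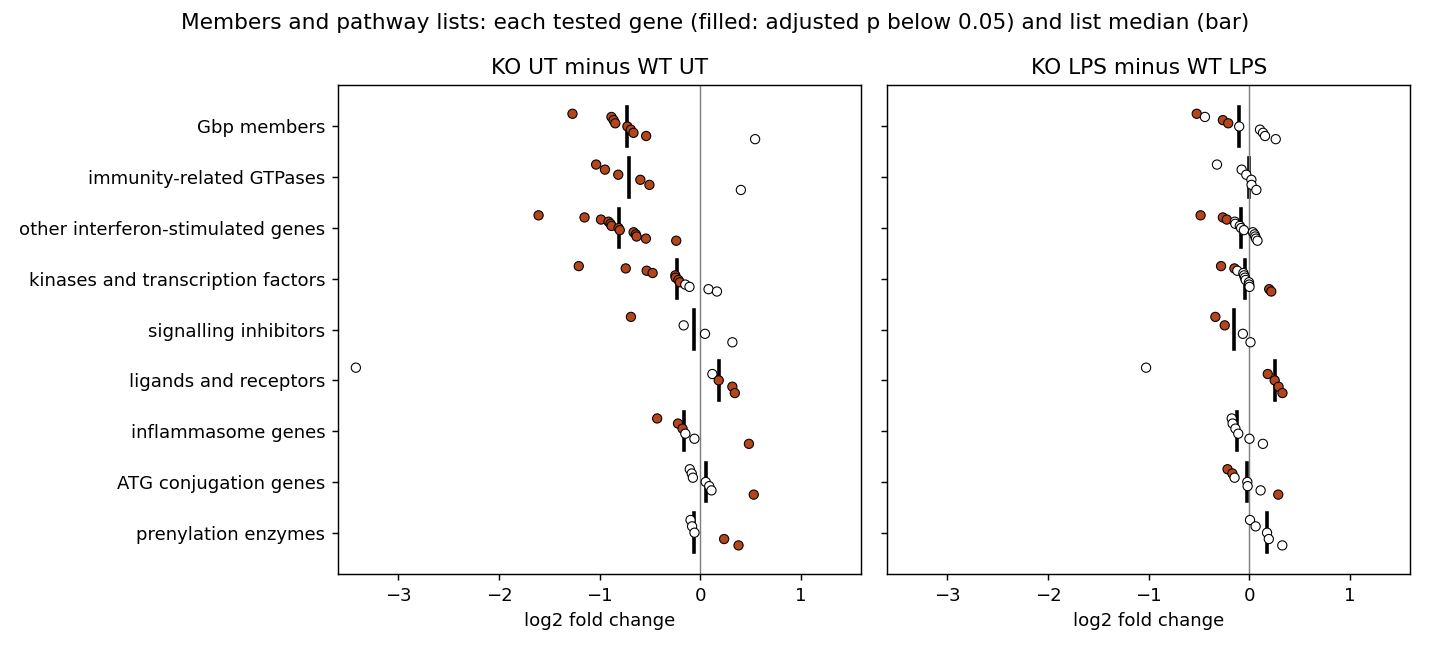
Log2 fold change of KO against WT for the Gbp members and for each tested gene of 8 pathway lists, without LPS and after LPS. Points are genes, filled where the edgeR adjusted p is below 0.05, and bars are list medians. Without LPS the median is -0.72 for the members and -0.81 for the other interferon-stimulated genes, and after LPS -0.10 and -0.08. The point at -3.42 is Ifnb1, which had at most 3 counts in any UT library.

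The genes whose pattern over the 12 libraries was most like the mean standardized log2 CPM of the 9 tested members were H2-Q6, Stat2, Ifit3b, Parp11 and Trim30c, out of 9078 protein-coding genes with a mean of at least 5 CPM. Their Pearson r was 0.998 for each, which is given as a measure of likeness only: the libraries fall into UT and LPS groups, and the step between these sets most of r. H2-Q6 belongs to a family of similar class I genes whose reads can be shared. Since KO UT and WT UT libraries entered this choice, the values of these genes in KO against WT are a description only, with log2 fold changes without LPS of -0.99 for H2-Q6, -0.74 for Stat2, -0.86 for Ifit3b, -0.51 for Parp11 and -1.04 for Trim30c.

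The genes next to the clusters were examined in the same way. Of the neighbours of the chromosome 3 cluster, Pdlim5 (log2 fold change -0.83), Kyat3 (0.27) and Gtf2b (0.52) were not called with LPS in WT, and Unc5c (2.62) was. Of those of the chromosome 5 cluster, Lrrc8c rose (2.32), Abcg3 fell (-4.26), and Zfp951 (-0.44) and Lrrc8b (0.35) were not called. In KO UT none of these 8 was lower at an edgeR adjusted p below 0.05, and Gtf2b (0.18, adjusted p 0.0231) and Abcg3 (0.37, adjusted p 0.0374) were higher. Both neighbours on the far side of Gbp11 had a larger LPS response in KO, with interaction values of 0.68 for Lrrc8b (adjusted p 0.00313) and 0.49 for Lrrc8c (adjusted p 0.0166). Lrrc8b was called with LPS in KO (1.03) and was higher in KO than in WT after LPS (0.45, adjusted p 0.00689). At the end of the chromosome 5 cluster, Gbp11 (105323042 to 105346472), annotated as a polymorphic pseudogene, had 0, 5 and 1 counts in WT UT, 49, 38 and 57 in WT LPS, 0, 1 and 0 in KO UT and 28, 21 and 24 in KO LPS. It rose with LPS in both genotypes, and its difference after LPS did not pass the threshold (log2 fold change -1.18, SE 0.411, adjusted p 0.0601 by edgeR). Gbp2-ps, an unprocessed pseudogene next to Gbp2, had 0 counts in every library.

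**Figure D5:**
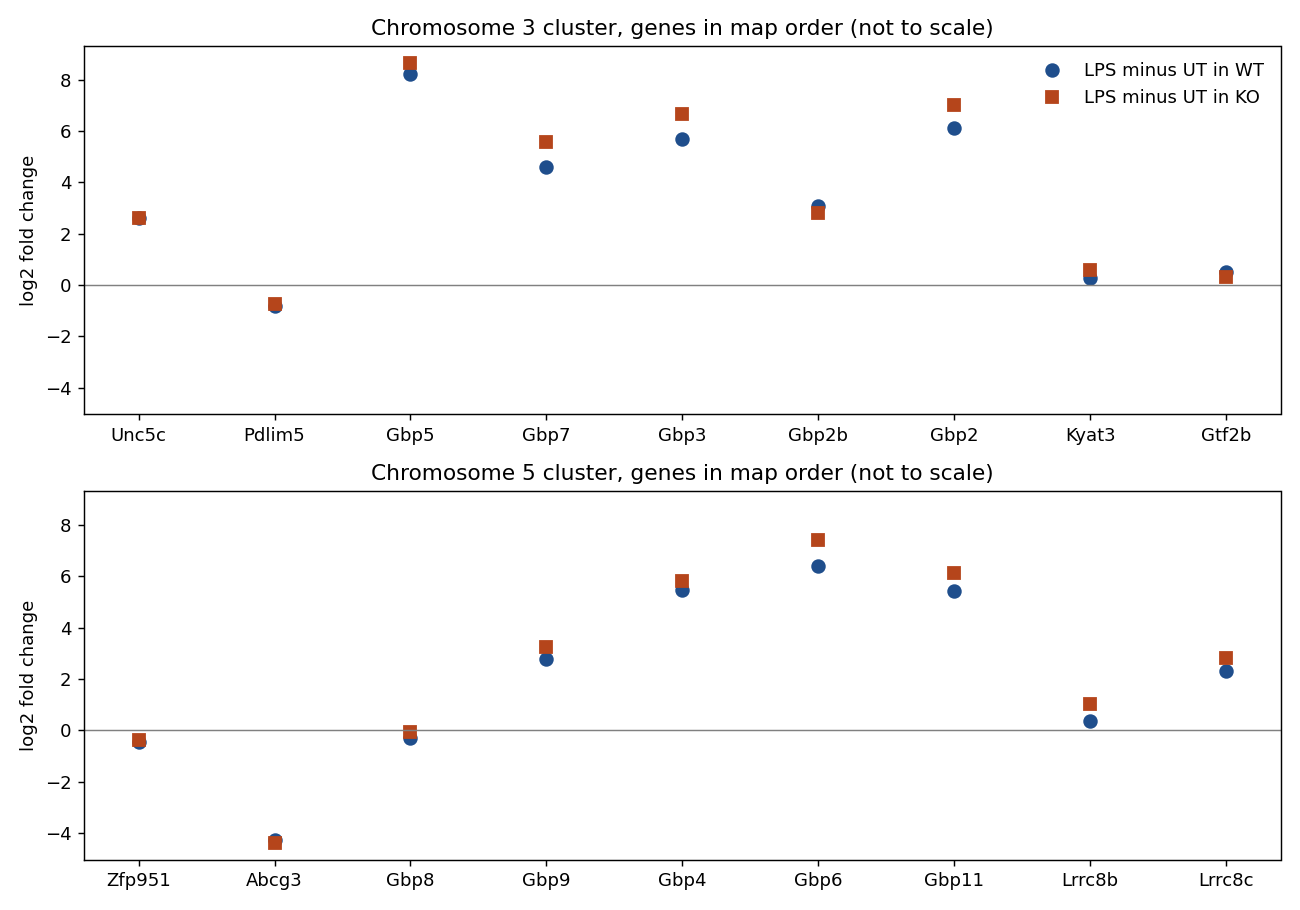
Log2 fold change with LPS in WT (circles) and KO (squares) for the tested genes of each Gbp cluster and the 2 nearest tested protein-coding genes on each side, in map order and not to scale. Within the chromosome 5 cluster Gbp8 lies near 0 (-0.31 in WT) between the neighbour Abcg3, which falls (-4.26), and Gbp9, which rises (2.78).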

How the data were processed

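Total RNA of 12 BMDM libraries, 3 in each of 4 groups, was analysed. Per the methods of the study and the submitters' processing notes, the authors made stranded libraries with a kit that removes globin RNA, sequenced paired ends, checked reads with FastQC 0.11.9, aligned them to GRCm38 with HISAT2 2.1.0 and SAMtools 1.17 and counted them per gene with featureCounts 2.0.0. The deposited table holds these raw counts, neither filtered nor normalized. Which annotation release and strand setting were used, and how reads matching several genes were handled, is not given in the sources used here, so counts of overlapping or near-identical genes are uncertain.

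Symbols and coordinates came from GENCODE M21 (GRCm38), matched by identifier without version for 48144 of 48526 genes. The other 382 held 0.122% of counts. Counts were compared by edgeR 4.0.16 with its quasi-likelihood test (limma 3.58.1, R 4.3.3) with TMM scaling, on the 15523 genes kept by filterByExpr (minimum count 10, minimum total 15, 99.96% of counts). The model held a mean for each of the 4 groups, was fitted to the 12 libraries together and had no covariate. Benjamini-Hochberg adjustment ran over the 15523 genes. The 5 contrasts tested were LPS in each genotype, KO against WT in each treatment, and the interaction. The thresholds (0.05 for the adjusted p, 1 for the absolute log2 fold change) are those of the study, which used DESeq2. The script was tested on simulated counts. CPM used TMM-scaled library sizes, and CPM per kb the union of exons. Ratios of genes with few counts carry exact conditional binomial 95% intervals. These reflect counting error alone, because without molecular identifiers reads are not independent molecules. Plots used matplotlib 3.10.9 (Python 3.11.15).

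The members and lists were chosen with earlier results of these data known. All 10 members are named, with Tnf as the check of the deletion, every pathway gene called between genotypes or in the interaction, the 3 called genes of largest LPS change in each list, the 5 genes most like the members, the 2 nearest tested genes on each side of each cluster, and other Gbp symbols. Gm43302 was named after its values were seen. Irgb10 was not matched and Ifng not tested.

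In the labels each replicate number stands for a batch, so libraries that share a number may be paired. The main model did not use the batch, which entered only as the replicate block of an alternative. The deviations from group means of 18 such pairs correlated at -0.0631 to 0.0373, with 0 pairs over 0.1. No replicate pair differed as little as counting noise (chi-square of at least 3.73 per degree of freedom). Alternatives were DESeq2 1.42.0, RLE and upper-quartile scaling, no filter, a minimum mean CPM of 1, protein-coding genes only, compared groups only, a replicate block, the small RNA share as a covariate, another length, and fits that each left out 1 library. The small RNA share did not overlap between genotypes in either treatment, so the fit with this covariate cannot separate it from genotype.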

Additional observations from a re-analysis of the deposited data

Results flagged for a closer look

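The LPS response differed between genotypes by the interaction test of edgeR for 6 members. The log2 difference of the response (KO minus WT) was 0.88 for Gbp2, 0.95 for Gbp3, 0.43 for Gbp5, 1.00 for Gbp6, 0.99 for Gbp7 and 0.45 for Gbp9. In each of these 6 the KO UT libraries lay below the WT UT libraries, and after LPS the genotypes overlapped for Gbp3, Gbp5 and Gbp7, with KO above WT for Gbp2 and below WT for Gbp6 and Gbp9. Small structured RNAs took 3.00 to 3.25% of counts in WT UT and 6.64 to 7.98% in KO UT. With this percentage as a covariate the differences were 0.38 for Gbp2, 0.45 for Gbp3, -0.19 for Gbp5, 0.45 for Gbp6, 0.07 for Gbp7 and -0.069 for Gbp9, and none had an adjusted p below 0.05. The percentages did not overlap between genotypes, so genotype and small RNA share cannot be told apart in this fit.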

How the results depend on the processing

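Over 45 log2 fold changes of the members, 922 values were computed under the alternatives. Of these, 884 kept their direction and stayed called or not called, 10 lost a call, 13 gained one and 15 changed sign. Wherever the 8 members called with LPS were tested they were called in both genotypes, except Gbp2b in KO under the small RNA covariate (3.61, adjusted p 0.0593). Gbp2b had no value when a mean CPM of 1 was required, on the compared groups only or without KO LPS replicate 3. With that covariate 0 members were called without LPS and 2 had an adjusted p below 0.05, and for the interaction 0 members had an adjusted p below 0.05, 0 were called and 0 pathway genes were called. Signs changed with it for Gbp8 with LPS in WT (0.00606), for Gbp2 (-0.00592), Gbp3 (-0.0550) and Gbp7 (-0.16) after LPS, for Gbp2b without LPS (-0.31), and for the interaction of Gbp2b (0.98), Gbp4 (-0.32), Gbp5 (-0.19), Gbp8 (-0.65) and Gbp9 (-0.0695). Members called for the interaction, 1 as reported, numbered 3 by DESeq2 and with RLE scaling (Gbp3, Gbp6 and Gbp7), 2 with all genes that had counts, 0 when a mean CPM of 1 was required and 0 among protein-coding genes only. Pathway genes called for the interaction, 5 as reported, numbered 3 when a mean CPM of 1 was required and 3 among protein-coding genes only. Pathway genes called after LPS, 0 as reported, numbered 1 (Ifnb1) by DESeq2, 1 among protein-coding genes only and 1 on the compared groups only. The cause of these changes was not tested. With 1 library left out, members with an adjusted p below 0.05 after LPS numbered 1 to 4, members called without LPS 1 to 3, members called for the interaction 0 to 3 and pathway genes called for it 2 to 5. The fold change of Gbp8 with LPS in KO then ranged from -0.24 to 0.10. For Gbp2b it ranged from 2.44 to 3.75 with LPS in KO, from -0.39 to 0.91 without LPS and from -0.65 to 0.66 for the interaction. With the replicate block, 2 members in place of 3 had an adjusted p below 0.05 after LPS (Gbp9 at 0.0542), and the block changed no other call of a member. With it, pathway genes called with LPS, in either direction, numbered 40 in WT and 41 in KO, as without it. Under upper-quartile scaling the median LPS change of all genes was -0.14 in WT (0.05 as reported) and -0.24 in KO (-0.06 as reported), and Gbp8 was lower with LPS in WT (-0.50, adjusted p 0.0234). Low counts of Gbp2b and Gbp10, and shared exons of Gbp6 and Gbp10, limit what can be said of these genes.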
